A study of Mus musculus with 18 samples.

Results

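The differentiation of C2C12 cells depleted of Setd2 with the first of the study's siRNAs (si-Setd2#1 in the labels, siRNA 1 here) was described from 6 of the 18 polyA RNA-seq libraries of the series. These were the 3 libraries of siRNA 1 myotubes and the 3 libraries of siRNA 1 myoblasts, chosen by their labels, and no measured value entered the choice. C2C12 is a mouse skeletal muscle cell line that divides as mononuclear myoblasts and fuses into multinucleated myotubes when it differentiates. The change was set beside that of the 3 myotube and 3 myoblast libraries that received a control siRNA (si-Ctrl), and in places beside that of the 3 myotube and 3 myoblast libraries of the second Setd2 siRNA (si-Setd2#2, siRNA 2). All 18 libraries come from the same line, and per the labels' protocols RNA was taken right after the cells had been stretched, so every value below is from stretched cells. The siRNA sequences, the time between transfection and harvest and the days of differentiation are not given in the labels used here. The libraries of a group are labelled as biological replicates, and p-values measure the spread between such libraries of 1 line. An siRNA lowers its target without removing the gene, and a bulk library averages over all cells of a dish, so fewer cells of a type and less RNA per cell cannot be told apart.

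SETD2 is the methyltransferase that places the third methyl group on lysine 36 of histone H3 in the bodies of transcribed genes, a mark that is read by factors of splicing, DNA repair and DNA methylation. During muscle differentiation, MyoD family factors and Mef2 proteins switch on the genes of the contractile apparatus, CDK inhibitors take the cells out of the cell cycle, and the genes of DNA synthesis and mitosis are shut off. Fusion proteins such as myomaker then join the cells, and the membranes and channels that couple excitation to contraction are laid down.

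Depth was even. Estimated counts summed to 51.2 to 56.4 megareads in siRNA 1 myotubes and 53.2 to 63.0 megareads in siRNA 1 myoblasts, within the range of 43.5 to 66.6 megareads over all 18 libraries. Ribosomal RNA-like sequence took 1.5% to 2.88% of the counts in siRNA 1 myotubes and 3.56% to 3.91% in siRNA 1 myoblasts, against 1.27% to 2.3% in control myotubes and 1.2% to 1.36% in control myoblasts. Library names begin with a letter of unknown meaning, C or D, which every group holds in unequal numbers: C names 1 of the 3 siRNA 1 myotube and 2 of the 3 siRNA 1 myoblast libraries, against 2 of the 3 control myotube and 1 of the 3 control myoblast libraries. The stages were deposited in separate tables with different name prefixes, so for every change between stages the stage, the table and the prefix cannot be told apart. The difference between the siRNA 1 change and the control change takes out what is shared by all libraries of a stage. It does not take out the letter, whose counts run in opposite directions between the stages of siRNA 1 and control. Differences in the main fit thus carry part of any effect of the letter, and values within a letter are given in places. The cells carried the markers of their line: Myod1, Pax7 and Myf5, factors of committed and precursor muscle cells, were measured at 21.1 CPM (counts per megaread, scaled between libraries) or more in each library of siRNA 1 and control. The 6 of 10 endothelial markers that passed the filter on low counts summed to at most 6.27 CPM in these libraries, and the 2 of 10 macrophage markers that passed to at most 2.16 CPM. These were the lowest of the marker lists. In the same libraries, the 12 fibroblast markers tested summed to 2916 to 7342 CPM. The 6 osteoblast and chondrocyte markers tested summed to 783 to 3116 CPM.

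Setd2 itself (ENSMUSG00000044791, chromosome 9, positions 110532597 to 110618633 of mm10) was low at both ends of the siRNA 1 series. It stood at 58.8, 38.9 and 39.1 CPM in siRNA 1 myotubes and at 41.5, 41.5 and 34.4 CPM in siRNA 1 myoblasts, against 107, 108 and 102 CPM in control myotubes and 97.7, 109 and 118 CPM in control myoblasts. No siRNA 1 library overlapped any control library of its stage. The level with siRNA 1 was lower than in controls by a log2 ratio of -1.21 ± 0.14 (SE) in myotubes (edgeR quasi-likelihood test, adjusted p = 3.86e-05) and of -1.47 ± 0.14 in myoblasts (adjusted p = 6.28e-06). Setd2 showed no called change on differentiation itself, with a log2 change of 0.22 ± 0.14 under siRNA 1 (edgeR adjusted p = 0.168) and of -0.04 ± 0.13 in controls (edgeR adjusted p = 0.817). On TPM, the authors' abundance corrected for transcript length, the rise under siRNA 1 was 0.40 and was called (limma, adjusted p = 0.0203), and the first siRNA 1 myotube library, at 58.8 CPM, held more Setd2 than its companions.

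With Setd2 low, the cells still switched on the contractile genes. Of 64 sarcomere genes tested, 63 rose under siRNA 1 and 1 fell, with a median log2 change of 7.83, against 62 that rose and 1 that fell in controls, with a median of 8.03. The gene that fell under siRNA 1, named after its value was seen, was Tpm3, a tropomyosin also made in nonmuscle cells, at a log2 change of -0.80. Among all 16930 genes tested, 6716 rose under siRNA 1 (39.7%) and 6562 fell (38.8%), and in controls 6678 rose (39.4%) and 6445 fell (38.1%), each at an edgeR adjusted p under 0.05. The median log2 change over all genes was 0.01 under siRNA 1 and 0.004 in controls. In 4 sarcomere genes no count was seen in siRNA 1 myoblasts, and with these set at the bound that 3 counts over the group allow, the list median was again 7.83.

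The embryonic and adult heavy chains of myosin, the motor of the thick filament, set the scale. Myh3, the embryonic form, reached 7401, 7669 and 7593 CPM in siRNA 1 myotubes, against 18.9, 22.0 and 7.42 CPM in siRNA 1 myoblasts. In controls it was at 6882, 6915 and 6193 CPM in myotubes, against 21.6, 9.54 and 6.30 CPM in myoblasts. The stages lay far apart in both series, and the log2 change was 8.87 ± 0.56 under siRNA 1 (edgeR adjusted p = 5.04e-09) and 9.05 ± 0.57 in controls (edgeR adjusted p = 4.75e-09). Skeletal alpha-actin Acta1, the main thin filament protein, averaged 4281 ± 30.2 CPM in siRNA 1 myotubes and 16.0 ± 6.09 CPM in siRNA 1 myoblasts (SD, n = 3 each), a 264-fold rise, against a 277-fold rise in controls. Fast troponin T Tnnt3, part of the calcium switch of the thin filament, rose 467-fold under siRNA 1 and 530-fold in controls. The low myoblast values of these genes moved with the library name: in siRNA 1 myoblasts, Myh3 was at 18.9 and 22.0 CPM in the 2 libraries with C and at 7.42 CPM in the library with D, and in control myoblasts at 21.6 CPM in the library with C and at 9.54 and 6.30 CPM in those with D. Among libraries with the same letter, 1 or 2 a group, the log2 rise of these genes was larger under siRNA 1 than in controls. The difference was 0.26 with C and 0.20 with D for Myh3, 0.34 and 0.20 for Acta1, and 0.05 and 0.41 for Tnnt3. Over the whole sarcomere list, the median difference between the siRNA 1 change and the control change was -0.17, and it was 0.10 in the fit with a term for the prefix, so its direction was not settled.

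Some of the genes that rose under siRNA 1 had no count at all in myoblasts, so that their rise is known only as a lower bound. Myl2, the slow and cardiac regulatory light chain of myosin, stood at 42.1, 39.7 and 37.2 CPM in siRNA 1 myotubes and at 0 in each siRNA 1 myoblast library, at least 2270-fold higher when the group is credited with 3 counts. In controls it was at 23.9, 21.3 and 25.6 CPM in myotubes and at 0 in each myoblast library, at least 1340-fold higher. Within myotubes, Myl2 was higher with siRNA 1 than with the control siRNA by a log2 ratio of 0.75 ± 0.08 (edgeR adjusted p = 8.4e-06). Ppp1r3a, the muscle glycogen-targeting subunit of protein phosphatase 1, was at least 1630-fold higher in siRNA 1 myotubes than in siRNA 1 myoblasts, and at least 945-fold higher in control myotubes than in control myoblasts. Fxyd6, a regulator of the sodium pump, was at least 1220-fold higher under siRNA 1 and at least 499-fold higher in controls. Dmd, the gene of dystrophin, which ties the cytoskeleton to the membrane, was at least 1100-fold higher under siRNA 1 and at least 631-fold higher in controls, though its siRNA 1 myotube values spread over 10.99, 24.7 and 22.2 CPM.

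The regulators and the fusion machinery followed. Myog, the factor of terminal differentiation, was at 954, 795 and 767 CPM in siRNA 1 myotubes, against 30.4, 33.1 and 12.8 CPM in siRNA 1 myoblasts, a log2 change of 5.04 ± 0.47 (edgeR adjusted p = 3.07e-07). The change in controls was 5.54 ± 0.48, and the difference of -0.49 ± 0.58 was not called (edgeR adjusted p = 0.669). That difference was 0.19 among libraries with C and -0.33 among those with D. Mef2c, which works with the MyoD family on muscle promoters, rose 190-fold under siRNA 1 and 147-fold in controls. Mymk, encoding the fusogen myomaker, rose 97.4-fold under siRNA 1 and 102-fold in controls. Among libraries with the same letter, its log2 rise was larger under siRNA 1, by 0.37 with C and 0.41 with D, so its direction was not settled. Of 28 myogenic regulators tested, 18 rose and 5 fell under siRNA 1, against 19 and 5 in controls. The difference between the series was called for 6 of them, 2 higher and 4 lower under siRNA 1. Over all genes tested, 5.17% were called higher and 9.08% lower, so the list as a whole did not stand out.

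Myod1, the factor that commits cells to muscle, was the exception among the leading regulators. It stood at 170, 146 and 147 CPM in siRNA 1 myotubes and at 95.2, 100 and 107 CPM in siRNA 1 myoblasts, against 182, 183 and 179 CPM in control myotubes and 96.1, 98.2 and 92.0 CPM in control myoblasts. The myoblast groups overlapped, and each siRNA 1 myotube library lay below each control myotube library. Its log2 change was 0.61 ± 0.06 under siRNA 1 and 0.93 ± 0.06 in controls, a difference of -0.32 ± 0.08 (edgeR adjusted p = 0.015). The Myod1 difference was -0.11 among libraries with C and -0.49 among those with D, so its size depends on the letter. Rbm38, an RNA-binding protein of muscle differentiation, had the highest difference of the list, 0.43 ± 0.09 (edgeR adjusted p = 0.00231).

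The promoters of the sarcomere list were searched for CAGCTG, an E-box of the kind that MyoD family factors bind. A promoter entry in RefSeq (GRCm38.p6, 250 bases before to 50 after the start) was found for 50 of the 64 genes, and 17 of these (34.0%) held CAGCTG, which reads the same on both strands, against 16.3% of 32851 promoters. Here and below, a list gene counted if any of its promoter entries held the letters. The share of all promoters was counted by single entry, so a gene with several entries had more chances. One such stretch is shown for its place near the start of a gene at the top of the fold scale, with the E-box in capitals and running from 170 bases before to 30 after the start.
Myh4 (chr11:67237642-67237841, plus strand, GRCm38.p6): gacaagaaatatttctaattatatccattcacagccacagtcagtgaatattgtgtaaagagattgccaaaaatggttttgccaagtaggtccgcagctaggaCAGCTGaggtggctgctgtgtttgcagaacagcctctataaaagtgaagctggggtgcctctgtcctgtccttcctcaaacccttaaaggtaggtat
Myh4, the fastest adult myosin heavy chain, reached 236, 276 and 292 CPM in siRNA 1 myotubes, against 0.125, 0.148 and 0.0931 CPM in siRNA 1 myoblasts. In controls it reached 568, 511 and 498 CPM in myotubes, against 0.365, 0.165 and 0.159 CPM in myoblasts. Myh4 was lower with siRNA 1 in myotubes, by a log2 ratio of -0.97 ± 0.08 (edgeR adjusted p = 6.92e-07). The ratio of -0.92 ± 0.51 in myoblasts was not called (edgeR adjusted p = 0.255). The changes were 11.07 ± 0.17 under siRNA 1 and 11.12 ± 0.15 in controls. The difference of -0.05 ± 0.70 rests on 21 counts in siRNA 1 myoblasts and 40 in control myoblasts, so it could not be placed closely. A match is a description of the letters and shows no binding.

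Genes of excitation-contraction coupling and of the neuromuscular junction mostly rose in both series. Of 30 genes of excitation-contraction coupling tested, 28 rose and 2 fell under siRNA 1, as in controls, with medians of 4.25 and 4.36. Ryr1, the calcium release channel of the sarcoplasmic reticulum, was at 1394, 1350 and 1293 CPM in siRNA 1 myotubes and at 22.0, 23.4 and 14.6 CPM in siRNA 1 myoblasts, a 66.8-fold rise against 72.2-fold in controls. Among libraries with the same letter, the log2 rise of Ryr1 was larger under siRNA 1, by 0.21 with C and 0.01 with D. Of 21 genes of the acetylcholine receptor and neuromuscular junction, 17 rose and 3 fell, against 17 and 2 in controls. Of 27 genes of the dystrophin complex and costamere, 21 rose and 4 fell, against 22 and 5 in controls. Of 32 fusion and adhesion genes, 15 rose and 14 fell, against 15 and 12 in controls, shares near the 39.7% and 38.8% of all genes under siRNA 1.

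Among the genes that fell furthest under siRNA 1 were Ngfr, Hhip and Nefl. Ngfr, the nerve growth factor receptor p75, stood at 0.0582, 0.0612 and 0.146 CPM in siRNA 1 myotubes, against 13.9, 13.4 and 20.8 CPM in siRNA 1 myoblasts, a log2 change of -7.43 ± 0.37. Hhip, an inhibitor of hedgehog signalling, changed by -7.12 ± 0.21, and Nefl, the light neurofilament chain, by -7.09 ± 0.22 (edgeR adjusted p at or under 3.78e-11 for the 3 genes). In controls the same changes were -8.15 ± 0.36, -6.58 ± 0.19 and -6.77 ± 0.22, and none of the 3 differences was called. The Prl2c genes fell as far, but they are near-identical copies whose reads can be shared, so their values are uncertain. All 40 mitosis genes fell in both series, and of 48 cytosolic ribosomal protein genes all 48 fell in both, with medians of -0.65 under siRNA 1 and -0.71 in controls.

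Set side by side, the change under siRNA 1 followed that of controls across the genome, as the plot of all genes shows. The series have no library in common. Of the genes that rose under siRNA 1, 6067 also rose in controls, which is 90.3% of the siRNA 1 rises and 90.9% of the control rises. Of the falls, 5830 were shared, 88.8% of those under siRNA 1 and 90.5% of those in controls. Across the 16930 genes, which are not independent replicates, Pearson's r of the log2 changes was 0.95. The difference itself was called for 876 genes that changed more upward under siRNA 1 (5.17%) and 1537 that changed more downward (9.08%). With a term for the name prefix 3857 differences were called in all, in place of 2413. The 2413 differences were small, with a median size of 0.35 on the log2 scale, and 177 of them (89 higher, 88 lower) reached 2-fold.

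**Figure D1:**
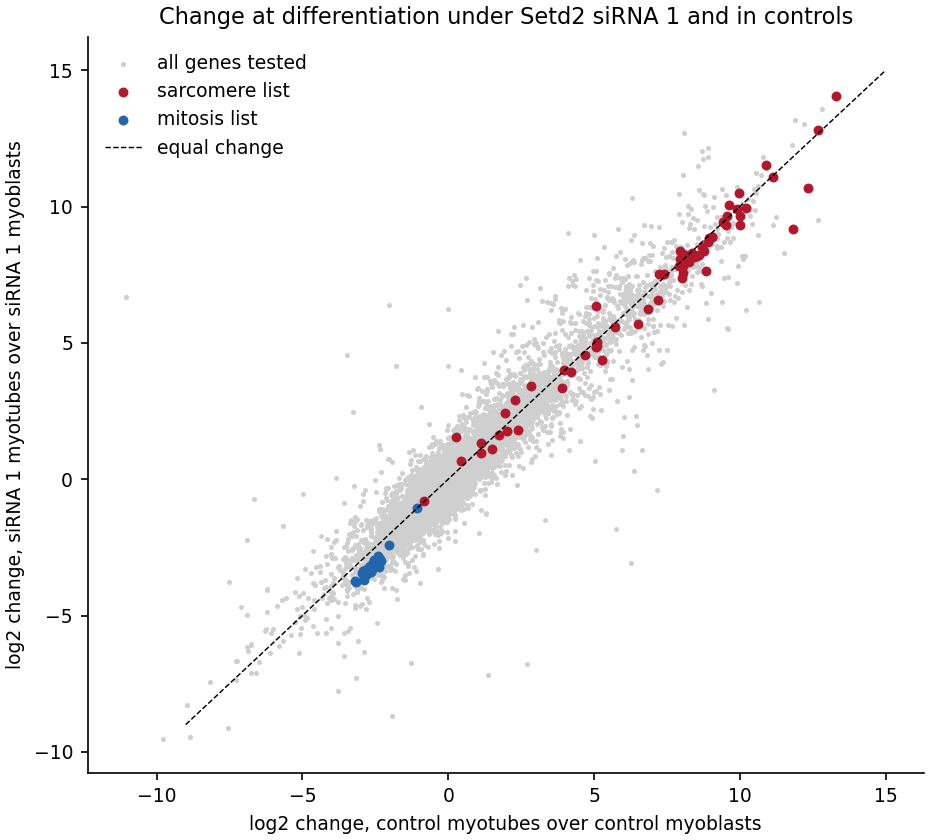
Log2 change from myoblasts to myotubes under siRNA 1 (y axis) against the same change with the control siRNA (x axis) for the 16930 genes tested; each point is a gene, sarcomere genes are red, mitosis genes blue, and the dashed line marks equal change. Sarcomere genes lie along the line, most of them at the upper right, and all mitosis genes but Bub3 lie below it at the lower left, with a median difference of -0.60.

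Downward differences were frequent among genes that fell on differentiation with siRNA 2. With the direction of each gene taken from siRNA 2, whose libraries enter neither the siRNA 1 change nor the control change, 2494 genes fell at least 2-fold. Of these, 593 had a called difference downward under siRNA 1 and 43 upward, with a median difference of -0.18. Of the 3365 genes that rose at least 2-fold with siRNA 2, 267 had a called difference upward and 104 downward, with a median difference of 0.09. Over all genes, 5.17% had a called difference upward and 9.08% downward. As siRNA 2 also lowers Setd2, genes that both siRNAs move the same way are more likely to be chosen. The excess is therefore partly built into the choice.

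Mitosis genes were shut off further under siRNA 1 than in controls. The difference was called downward for 39 of 40, against 9.08% of all genes, and upward for none. The list's summed level was 824 to 887 CPM in siRNA 1 myotubes and 7298 to 7419 CPM in siRNA 1 myoblasts, against 1143 to 1222 CPM in control myotubes and 6942 to 7046 CPM in control myoblasts, with no overlap between siRNA 1 and control at either stage. Foxm1, the transcription factor of the G2 and mitosis program, stood at 21.6, 23.3 and 21.5 CPM in siRNA 1 myotubes and at 198, 200 and 216 CPM in siRNA 1 myoblasts. In controls it stood at 31.5, 33.2 and 33.6 CPM in myotubes and at 166, 173 and 167 CPM in myoblasts. Foxm1 was thus lower with siRNA 1 in myotubes and higher in myoblasts, without overlap in either stage. Its log2 change was -3.21 ± 0.04 under siRNA 1 and -2.36 ± 0.04 in controls, a difference of -0.85 ± 0.06 (edgeR adjusted p = 2.14e-08).

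Plk1, the kinase that drives mitotic entry and spindle assembly, was at 10.7, 11.7 and 10.3 CPM in siRNA 1 myotubes and at 137, 136 and 149 CPM in siRNA 1 myoblasts, against 14.4, 16.4 and 15.2 CPM in control myotubes and 114, 117 and 113 CPM in control myoblasts. The difference of its log2 changes was -0.80 ± 0.07 (edgeR adjusted p = 3.29e-07). Ccnb1, cyclin B1, had the largest fall of the list under siRNA 1, -3.76 ± 0.05 against -3.15 ± 0.04 in controls. The proliferation marker Mki67 was at 104, 110 and 107 CPM in siRNA 1 myotubes and at 968, 985 and 933 CPM in siRNA 1 myoblasts, against 149, 156 and 160 CPM in control myotubes and 875, 879 and 858 CPM in control myoblasts, a difference of -0.67 ± 0.06 (edgeR adjusted p = 3.29e-07). The member whose difference was not called was Bub3, a spindle checkpoint protein, at 0.03 ± 0.05, named here after its value was seen.

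Most of this difference was measured at the myotube end. Against controls of the same stage, 39 of the 40 mitosis genes were lower in siRNA 1 myotubes and none was higher, with a median log2 ratio of -0.53. In siRNA 1 myoblasts 12 were higher and 1 was lower, with a median of 0.09. Over all genes, 10.1% were called higher and 10.7% lower in siRNA 1 myotubes than in control myotubes, and 9.65% higher and 7.54% lower in siRNA 1 myoblasts than in control myoblasts. The median difference of the mitosis list was -0.62 among libraries with C and -0.54 among those with D, below 0 for 39 and 40 of the 40 genes. Leaving out any 1 of the 12 libraries of siRNA 1 and control left the count of called members at 39.

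The genes of DNA synthesis and of repair by recombination, which are made in cycling cells, followed with smaller differences. Of 44 DNA replication genes tested, 26 had a called difference downward and 1 upward, with a median of -0.30. Orc1, the largest subunit of the origin recognition complex, was at 1.71, 1.59 and 1.48 CPM in siRNA 1 myotubes and at 17.1, 15.7 and 18.2 CPM in siRNA 1 myoblasts, against 2.61, 2.63 and 2.82 CPM in control myotubes and 15.6, 16.6 and 16.7 CPM in control myoblasts. The groups overlapped in myoblasts and were apart in myotubes, and the difference of the changes was -0.81 ± 0.12 (edgeR adjusted p = 6.97e-05). Mcm5, a subunit of the replicative helicase, differed by -0.43 ± 0.05 (edgeR adjusted p = 7.5e-06). The 1 member with an upward difference was Pola2, a subunit of DNA polymerase alpha, at 0.20 ± 0.06 (edgeR adjusted p = 0.0351), a call that was lost without the first or the third siRNA 1 myoblast, the third siRNA 1 myotube, the second control myoblast, or the first or the second control myotube library (adjusted p 0.0612 to 0.105). Of 33 DNA repair genes, 18 had a called difference downward and none upward, with a median of -0.35. Brca1, which prepares breaks for recombination, differed by -0.44 ± 0.08 (edgeR adjusted p = 0.000463). On TPM with limma, 9 repair genes were called in place of 18, Brca1 was not among them (-0.23, adjusted p = 0.114), and Orc1 differed by -0.38 (adjusted p = 0.0404).

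Among the brakes of the cycle, Cdkn1a and Rb1 had no called difference. Cdkn1a, encoding the CDK inhibitor p21, averaged 1573 ± 18.9 CPM in siRNA 1 myotubes and 184 ± 5.07 CPM in siRNA 1 myoblasts, against 1565 ± 79.3 CPM in control myotubes and 184 ± 19.1 CPM in control myoblasts (SD, n = 3 each). Its difference was 0.01 ± 0.09 (edgeR adjusted p = 0.98). Rb1, the retinoblastoma gene, rose by 2.29 ± 0.09 under siRNA 1 and by 2.10 ± 0.09 in controls, and the difference was not called (edgeR adjusted p = 0.373). Of 22 genes of cell cycle exit tested, 4 had a called difference, Cdk2 and Ccnd2 upward and Myc and Cdk4 downward. This is beside 5.17% of all genes called upward and 9.08% downward. Ccnd2 was not called on TPM (limma, adjusted p = 0.478). Cdk4, at -0.16, lost its call without any 1 library other than the first siRNA 1 myotube and the second control myotube library (edgeR adjusted p 0.0504 to 0.134). Cdk2, the kinase of S phase entry, was at 93.7, 92.1 and 94.3 CPM in siRNA 1 myotubes, against 66.2, 66.4 and 65.9 CPM in siRNA 1 myoblasts, and at 71.8, 71.7 and 66.6 CPM in control myotubes, against 69.7, 72.2 and 69.8 CPM in control myoblasts. It thus rose under siRNA 1, by 0.50 ± 0.04, and was not called in controls, at -0.01 ± 0.04, with a difference of 0.51 ± 0.06 (edgeR adjusted p = 3.25e-06). Myc, a growth-promoting transcription factor, fell by 1.93 ± 0.10 on the log2 scale under siRNA 1 and by 1.39 ± 0.10 in controls.

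Mitosis gene promoters are known for the CHR element TTTGAA, through which the DREAM complex silences them in cells that have left the cycle and FOXM1-bearing complexes drive them in dividing cells. Promoter entries were found for 31 of the 40 mitosis genes. Of these genes, 22 (71.0%) held TTTGAA in any entry, on 1 strand or the other, against 17.9% of all 32851 single entries. CCAAT, read on both strands, was in any entry of 24 of the 31 genes (77.4%), against 37.4% of all single entries. The stretches of Ccnb2, encoding cyclin B2, and Mki67 are shown because each holds TTTGAA 2 times, in capitals, between 170 bases before and 30 after the start. Ccnb2 was picked for these letters after its values were seen.
Ccnb2 (chr9:70421525-70421724, minus strand, GRCm38.p6): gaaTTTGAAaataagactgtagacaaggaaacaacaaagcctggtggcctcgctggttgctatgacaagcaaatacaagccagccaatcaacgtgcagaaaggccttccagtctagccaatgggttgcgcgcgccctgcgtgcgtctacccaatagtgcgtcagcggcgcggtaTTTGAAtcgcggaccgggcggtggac
Mki67 (chr7:135716350-135716549, minus strand, GRCm38.p6): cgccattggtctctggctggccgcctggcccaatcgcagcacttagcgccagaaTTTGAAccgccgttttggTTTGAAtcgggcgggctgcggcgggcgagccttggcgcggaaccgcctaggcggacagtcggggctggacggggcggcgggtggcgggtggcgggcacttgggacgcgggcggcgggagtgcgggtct
Ccnb2 changed by -2.996 under siRNA 1 and by -2.33 in controls, a difference of -0.67 (edgeR adjusted p = 0.0017), close in size to that of Mki67. The letters show where a known element could lie, and no binding was measured.

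**Figure D2:**
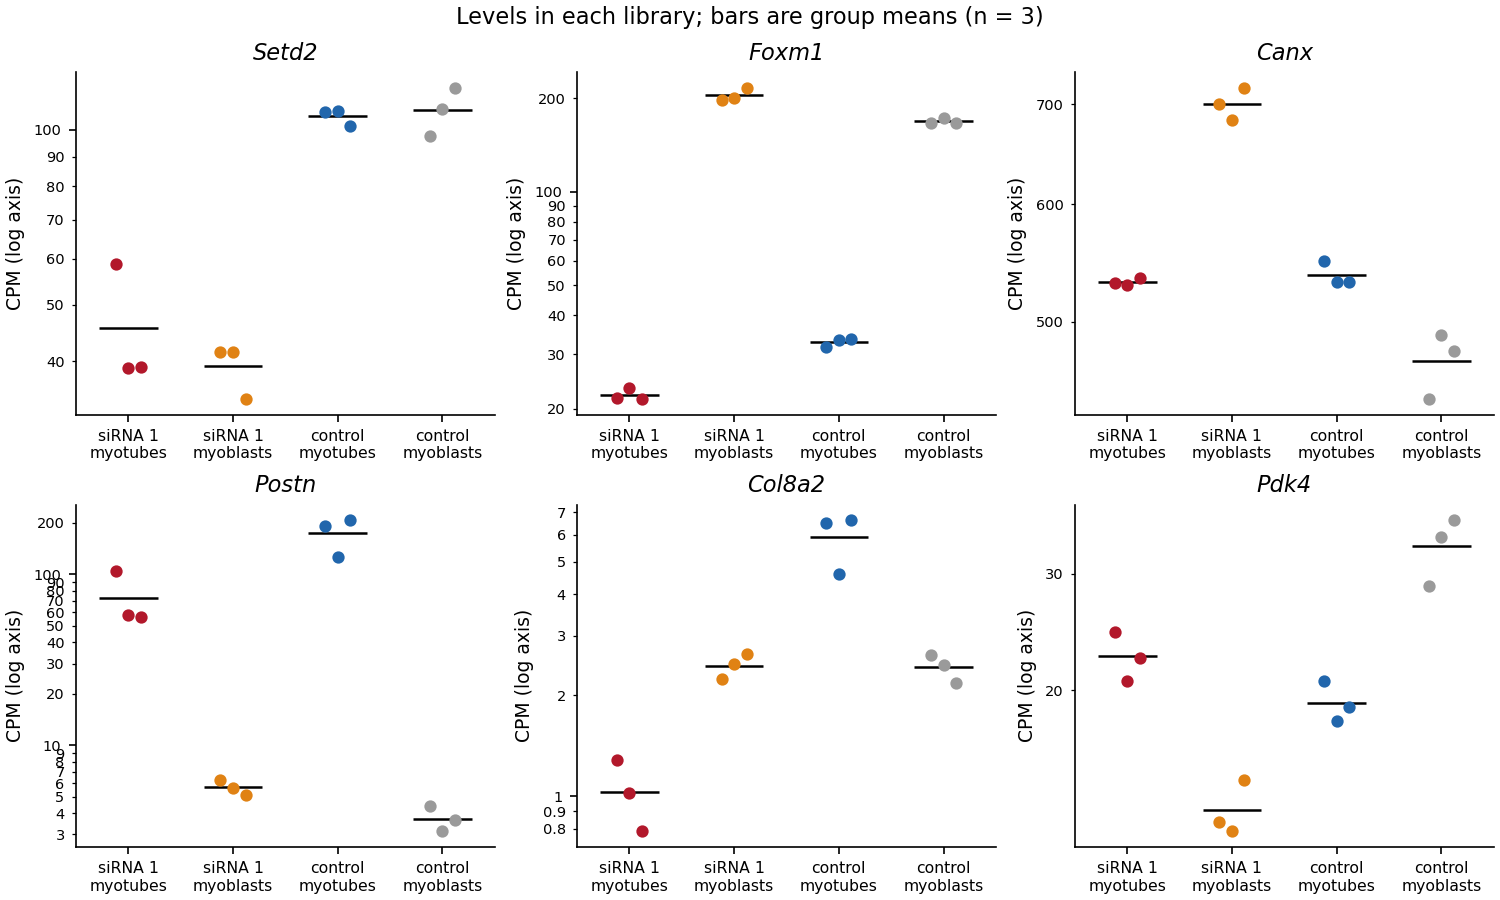
Level in each library (CPM, log axis) of Setd2, Foxm1, Canx, Postn, Col8a2 and Pdk4 in siRNA 1 myotubes, siRNA 1 myoblasts, control myotubes and control myoblasts; points are libraries and bars the mean of 3. Setd2 is lower with siRNA 1 at both stages, Foxm1 with siRNA 1 is lowest in myotubes and highest in myoblasts, and the siRNA 1 and control series run in opposite directions for Canx, Col8a2 and Pdk4.

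Genes of protein folding in the endoplasmic reticulum and of integrated stress changed further downward as well. Of 34 tested, 21 had a called difference downward and none upward, with a median of -0.29, and 24 fell and 7 rose under siRNA 1, against 18 and 10 in controls. Canx, encoding the membrane chaperone calnexin (chromosome 11, positions 50293961 to 50325673 of mm10), was at 531, 529 and 535 CPM in siRNA 1 myotubes and at 700, 683 and 718 CPM in siRNA 1 myoblasts, against 550, 532 and 532 CPM in control myotubes and 444, 490 and 478 CPM in control myoblasts. The myotube groups met, and siRNA 1 myoblasts stood above all other libraries. Canx fell by 0.40 ± 0.04 on the log2 scale under siRNA 1 and rose by 0.19 ± 0.04 in controls, a difference of -0.59 ± 0.05 (edgeR adjusted p = 3.29e-07). Mthfd2, a mitochondrial folate enzyme driven by ATF4, was at 73.1, 94.0 and 87.3 CPM in siRNA 1 myotubes, against 124, 126 and 116 CPM in siRNA 1 myoblasts. In controls it was at 102, 141 and 106 CPM in myotubes, against 124, 108 and 106 CPM in myoblasts, and the difference of the changes was -0.57 ± 0.16 (edgeR adjusted p = 0.0291). The Mthfd2 call was lost without the first siRNA 1 myotube, the first or the second siRNA 1 myoblast, or the second or the third control myoblast library (edgeR adjusted p 0.0589 to 0.0730). Hspa5, the main chaperone of the compartment, picked for its promoter after its value was seen, differed by -0.26 ± 0.07 (edgeR adjusted p = 0.0145).

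Both stages took part in this difference. Of the 34 genes, 10 were higher and none was lower in siRNA 1 myoblasts than in control myoblasts, with a median log2 ratio of 0.11. In myotubes none was higher and 15 were lower with siRNA 1, with a median of -0.15. The median difference of the changes was -0.28 among libraries with C and -0.38 among those with D, below 0 for 33 of the 34 genes in each. Without the third control myoblast library, 13 members were called in place of 21. The promoters of the list are known for the ER stress element, CCAAT and CCACG 9 bases apart, which ATF6 and NF-Y bind. Read on both strands, it was in any promoter entry of 7 of 31 genes (22.6%), against 39 of 32851 single entries (0.119%). It is shown in capitals for Canx and Hspa5, over 170 bases before to 30 after the start.
Canx (chr11:50325644-50325843, minus strand, GRCm38.p6): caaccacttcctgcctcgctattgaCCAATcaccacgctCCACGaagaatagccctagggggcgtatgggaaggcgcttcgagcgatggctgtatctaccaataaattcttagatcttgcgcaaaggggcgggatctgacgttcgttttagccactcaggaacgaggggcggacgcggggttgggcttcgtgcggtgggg
Hspa5 (chr2:34771920-34772119, plus strand, GRCm38.p6): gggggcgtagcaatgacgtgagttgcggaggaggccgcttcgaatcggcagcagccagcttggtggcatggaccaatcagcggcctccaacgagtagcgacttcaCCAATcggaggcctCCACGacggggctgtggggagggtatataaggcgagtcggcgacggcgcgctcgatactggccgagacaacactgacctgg
Of this pair, Canx holds the element farther from its start than Hspa5.

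Many matrix genes rose less, or fell further, under siRNA 1 than in controls. Of 57 tested, 26 rose and 23 fell under siRNA 1, with a median change of 0.18, against 33 and 16 in controls, with a median of 0.60. The difference was called downward for 21 and upward for 2, with a median of -0.38. Postn, encoding the matrix protein periostin, was at 105, 57.6 and 56.0 CPM in siRNA 1 myotubes and at 6.29, 5.58 and 5.11 CPM in siRNA 1 myoblasts, against 193, 126 and 208 CPM in control myotubes and 4.38, 3.14 and 3.65 CPM in control myoblasts. All siRNA 1 myotube libraries were below all control myotube libraries, and all siRNA 1 myoblast libraries above all control myoblast libraries. Postn rose by 3.68 ± 0.34 under siRNA 1 and by 5.55 ± 0.37 in controls, a difference of -1.87 ± 0.51 (edgeR adjusted p = 0.0291). Ccn2, connective tissue growth factor, was at 57.0, 49.1 and 44.9 CPM in siRNA 1 myotubes and at 33.1, 34.3 and 58.2 CPM in siRNA 1 myoblasts, against 106, 112 and 125 CPM in control myotubes and 21.3, 36.5 and 41.1 CPM in control myoblasts. Its change was not called under siRNA 1, at 0.27 ± 0.28 (edgeR adjusted p = 0.404), and was 1.80 ± 0.29 in controls, a difference of -1.53 ± 0.40 (edgeR adjusted p = 0.0235). The Postn call was lost without any 1 library other than the first siRNA 1 myotube, the third siRNA 1 myoblast, the second control myotube and the first control myoblast library (edgeR adjusted p 0.0594 to 0.0776), and the Ccn2 call without the third siRNA 1 myotube, the third siRNA 1 myoblast or the third control myotube library (edgeR adjusted p 0.0508 to 0.0560).

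The matrix list did not move as 1 block. Dcn, the collagen-binding proteoglycan decorin, rose more under siRNA 1, to 129, 118 and 128 CPM in siRNA 1 myotubes, against 3.65, 4.05 and 2.20 CPM in siRNA 1 myoblasts. In controls it was at 91.2, 86.6 and 91.6 CPM in myotubes, against 3.90, 4.14 and 3.96 CPM in myoblasts, and the difference of the changes was 0.74 ± 0.22 (edgeR adjusted p = 0.038), a call that was lost without any 1 library other than the second siRNA 1 myoblast library (adjusted p 0.0532 to 0.0925). Col1a1, the main chain of type I collagen, spread too widely for a call, at 284, 150 and 147 CPM in siRNA 1 myotubes and 245, 145 and 273 CPM in control myotubes, with a difference of -0.91 ± 0.47 (edgeR adjusted p = 0.253). Among libraries with C the median difference of the list was -0.25, with 47 of 57 genes below 0, and among those with D it was -0.21, with 46 of 57.

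Targets of YAP and SRF, factors that answer to tension and the actin cytoskeleton, differed mostly downward as well. Of 36 tested, 17 rose and 15 fell under siRNA 1, against 20 and 9 in controls, and the difference was called downward for 16 and upward for none, with a median of -0.31. Cnn1, the smooth muscle calponin, had the lowest difference, -1.88 ± 0.52 (edgeR adjusted p = 0.0189), at levels of at most 1.17 CPM, a call that was lost without the third siRNA 1 or the third control myotube library (adjusted p 0.0686 and 0.0726) and on TPM with limma (adjusted p = 0.06). Actg2, smooth muscle gamma-actin, was at 15.9, 10.2 and 9.88 CPM in siRNA 1 myotubes and at 19.96, 18.5 and 16.7 CPM in siRNA 1 myoblasts, against 23.3, 18.8 and 26.4 CPM in control myotubes and 15.8, 13.1 and 11.97 CPM in control myoblasts. It fell under siRNA 1, by 0.62 ± 0.18 on the log2 scale, and rose by 0.74 ± 0.18 in controls, a difference of -1.36 ± 0.26 (edgeR adjusted p = 0.00286). Tagln, transgelin, rose in both series, by 1.31 ± 0.11 under siRNA 1 and by 1.99 ± 0.11 in controls. Of 10 smooth muscle markers tested, which include these 3 genes, 4 had a called difference downward and none upward, and their summed level was 2458 to 2922 CPM in siRNA 1 myotubes and 493 to 505 CPM in siRNA 1 myoblasts, against 2448 to 2632 CPM in control myotubes and 385 to 442 CPM in control myoblasts. Of 12 fibroblast markers tested, 2 had a called difference upward and 1 downward, and their sum was 2993 to 3202 CPM in siRNA 1 myotubes and 6922 to 7342 CPM in siRNA 1 myoblasts, against 2916 to 3068 CPM in control myotubes and 6595 to 6831 CPM in control myoblasts. The part of these markers in the matrix and YAP results was not tested.

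Here too both stages differed: 11 of the 36 YAP and SRF targets were higher and none was lower in siRNA 1 myoblasts than in control myoblasts, and 3 were higher and 13 lower in siRNA 1 myotubes than in control myotubes. The binding motif of TEAD proteins, the DNA-binding partners of YAP, is CATTCC. On 1 strand or the other, it was in any promoter entry of 15 of 28 genes (53.6%) and of 19 of 50 sarcomere genes (38.0%). Of all single promoter entries, 14.7% held it. Ccn1, a classic YAP target, shows it in capitals, over 170 bases before to 30 after the start.
Ccn1 (chr3:145649956-145650155, minus strand, GRCm38.p6): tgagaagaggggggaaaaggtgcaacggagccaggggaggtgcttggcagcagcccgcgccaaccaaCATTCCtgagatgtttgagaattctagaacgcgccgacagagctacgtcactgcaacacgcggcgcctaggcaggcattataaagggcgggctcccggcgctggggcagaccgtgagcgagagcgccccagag
The difference of Ccn1 itself, shown for its motif, was not called, at -0.55 (edgeR adjusted p = 0.288).

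**Figure D3:**
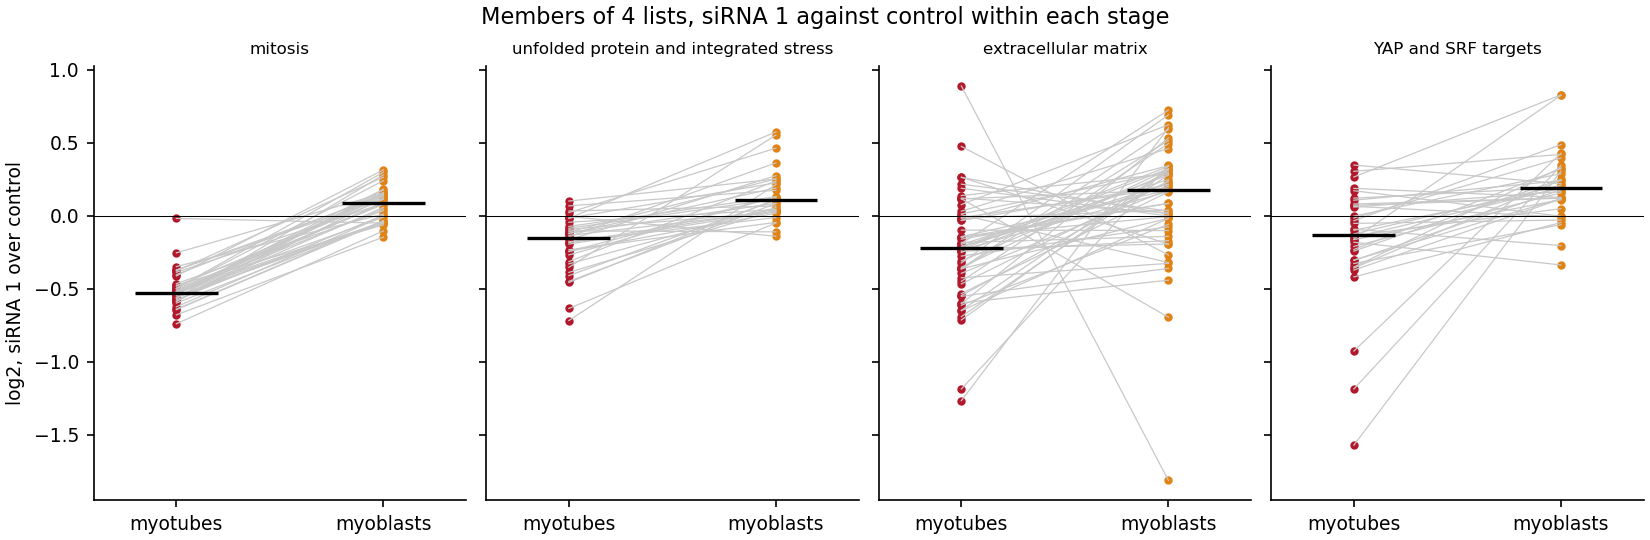
Log2 ratio of siRNA 1 over control in myotubes (left of each panel) and in myoblasts (right) for the members of 4 lists: mitosis, unfolded protein and integrated stress, extracellular matrix, and YAP and SRF targets; points are genes, lines join a gene's values, and bars are list medians. Mitosis genes lie below 0 in myotubes (median -0.53) and near 0 in myoblasts (median 0.09), while the medians of the other lists lie below 0 in myotubes and above 0 in myoblasts.

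By list medians, the RNA of energy metabolism genes rose slightly more under siRNA 1. Of 61 nuclear genes of oxidative phosphorylation tested, 53 rose and 2 fell under siRNA 1, with a median of 0.38, against 46 and 6 in controls, with a median of 0.29. The difference was called upward for 14, against 5.17% of all genes, and downward for 2, with a median of 0.11. Ndufs7, a subunit of complex I, was at 56.0, 57.9 and 56.0 CPM in siRNA 1 myotubes and at 41.1, 41.4 and 41.7 CPM in siRNA 1 myoblasts, against 48.8, 46.8 and 49.6 CPM in control myotubes and 45.3, 43.2 and 41.1 CPM in control myoblasts, a difference of 0.29 ± 0.05 (edgeR adjusted p = 0.00101). The count of 14 depends on single libraries: it was 5 without the first siRNA 1 myotube library, 5 without the second, 5 without the first siRNA 1 myoblast library, 6 without the second, 3 without the second control myotube library, 7 without the third, 5 without the first control myoblast library and 6 without the second. Among libraries with C the difference was above 0 for 59 of 61 genes, with a median of 0.15, and among those with D for 53, with a median of 0.10.

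Among genes of fuel use, single members differed in RNA level. Of 35 genes of fatty acid oxidation and mitochondrial biogenesis, 7 had a called difference upward and none downward. Ppargc1a, the coactivator PGC-1alpha that drives mitochondrial biogenesis, was at 14.9, 14.1 and 14.4 CPM in siRNA 1 myotubes and at 2.19, 2.38 and 2.87 CPM in siRNA 1 myoblasts, against 11.97, 7.79 and 10.3 CPM in control myotubes and 2.75, 3.15 and 4.13 CPM in control myoblasts. The difference was 0.98 ± 0.27 (edgeR adjusted p = 0.0251), a call that was lost without the first or the second siRNA 1 myoblast or the third control myoblast library (adjusted p 0.0620 to 0.0766). Of 35 genes of glycolysis and creatine, 6 had a called difference upward and 2 downward. Pdk4, the kinase that shuts pyruvate out of the mitochondria (chromosome 6, positions 5483351 to 5496309 of mm10), changed in opposite directions. It was at 24.5, 20.7 and 22.3 CPM in siRNA 1 myotubes and at 12.7, 12.2 and 14.6 CPM in siRNA 1 myoblasts, against 20.7, 17.9 and 18.9 CPM in control myotubes and 28.8, 34.1 and 36.2 CPM in control myoblasts. The myotube groups met at 20.7 CPM, and the siRNA 1 myoblasts lay far below the control myoblasts. The change was 0.77 ± 0.12 under siRNA 1 and -0.79 ± 0.12 in controls, a difference of 1.56 ± 0.17 (edgeR adjusted p = 1.35e-05). Ldhb, the heart type of lactate dehydrogenase, rose by 2.74 ± 0.10 under siRNA 1 and by 1.80 ± 0.10 in controls, and Ckb, the brain type of creatine kinase, by 1.62 ± 0.08 and 2.19 ± 0.08, with both differences called.

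Single members of the contractile lists also differed from controls. In the sarcomere list 5 of 64 genes had a called difference upward and 5 downward, beside 5.17% and 9.08% of all genes, and among 30 genes of excitation-contraction coupling 4 had one upward and 5 downward. Nebl, the nebulin relative nebulette, was at 4.43, 4.41 and 4.95 CPM in siRNA 1 myotubes and at 1.44, 1.39 and 1.86 CPM in siRNA 1 myoblasts, against 2.82, 2.89 and 3.44 CPM in control myotubes and 2.17, 2.59 and 2.79 CPM in control myoblasts. It rose under siRNA 1, by 1.56 ± 0.14, and was not called in controls, at 0.28 ± 0.14, a difference of 1.28 ± 0.20 (edgeR adjusted p = 0.000172), which was not called on TPM (0.78, limma adjusted p = 0.082). Synpo2l, a Z-disc protein, was at 644, 693 and 654 CPM in siRNA 1 myotubes and at 32.8, 34.9 and 29.0 CPM in siRNA 1 myoblasts, against 629, 666 and 603 CPM in control myotubes and 20.9, 14.4 and 14.1 CPM in control myoblasts. Its difference of -0.90 ± 0.16 (edgeR adjusted p = 0.00201) sat at the myoblast end. Jph1, a junctophilin, which holds the surface membrane to the calcium store, was at 185, 192 and 197 CPM in siRNA 1 myotubes and at 13.04, 13.6 and 14.1 CPM in siRNA 1 myoblasts, against 167, 173 and 157 CPM in control myotubes and 21.04, 22.7 and 22.3 CPM in control myoblasts, a difference of 0.90 ± 0.07 (edgeR adjusted p = 5.97e-08). Kcnj2, an inward rectifier potassium channel that sets the resting potential, differed by 0.93 ± 0.14 (edgeR adjusted p = 0.000123). Nrg1, the neuregulin that signals at the neuromuscular junction, fell by 1.09 ± 0.09 on the log2 scale under siRNA 1 and by 0.36 ± 0.09 in controls.

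By the rule on named genes, the lowest and the highest single differences lay outside these lists. Col8a2, a chain of type VIII collagen (chromosome 4, positions 126286793 to 126314330 of mm10), was at 1.28, 1.02 and 0.786 CPM in siRNA 1 myotubes and at 2.23, 2.48 and 2.65 CPM in siRNA 1 myoblasts, against 6.52, 4.596 and 6.64 CPM in control myotubes and 2.64, 2.46 and 2.17 CPM in control myoblasts. The myoblast groups overlapped, and the myotube groups were far apart. Col8a2 fell by 1.25 ± 0.18 on the log2 scale under siRNA 1 and rose by 1.28 ± 0.15 in controls, a difference of -2.53 ± 0.23 (edgeR adjusted p = 5.01e-07). Stmn4, a stathmin that binds tubulin, fell by 3.995 ± 0.13 under siRNA 1 and by 1.92 ± 0.12 in controls, a difference of -2.08 ± 0.19 (edgeR adjusted p = 4.1e-07).

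Among the upward differences, Cdh1, encoding the adhesion protein E-cadherin, led. It was at 17.4, 26.2 and 25.1 CPM in siRNA 1 myotubes and at 0.893, 0.776 and 0.745 CPM in siRNA 1 myoblasts, against 17.4, 19.7 and 16.8 CPM in control myotubes and 1.96, 2.37 and 2.07 CPM in control myoblasts. The myotube groups met at 17.4 CPM and the myoblast groups were apart, and its difference of 1.74 ± 0.22 (edgeR adjusted p = 2.58e-05) was made up of a log2 ratio of siRNA 1 over control of -1.39 ± 0.19 in myoblasts and 0.35 ± 0.11 in myotubes. Foxq1, a forkhead factor, differed by 1.65 ± 0.32 (edgeR adjusted p = 0.00255), with -1.52 ± 0.25 in myoblasts and 0.13 ± 0.20 in myotubes. Wnt7b, a secreted Wnt ligand, fell by 2.01 ± 0.13 under siRNA 1 and by 3.41 ± 0.14 in controls. On TPM with a pseudocount of 1, which understates changes of low genes, the differences were smaller and still called by limma, at 0.75 for Cdh1 (adjusted p = 0.00347), 0.997 for Foxq1 (adjusted p = 0.00648), 0.90 for Wnt7b (adjusted p = 0.000122) and -1.26 for Col8a2 (adjusted p = 5.29e-05).

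Genes called in opposite directions were few. There were 24 that rose under siRNA 1 and fell in controls and 74 that fell under siRNA 1 and rose in controls. The difference was called for all 98, which is close to given once both changes are called with opposite signs. By contrast, 1283 genes were called under siRNA 1 and not in controls, of which 247 had a called difference, and 1128 were called in controls and not under siRNA 1, of which 212 had one. Besides Pdk4, Plet1, a surface protein, rose by 0.84 ± 0.14 under siRNA 1 and fell by 0.45 ± 0.13 on the log2 scale in controls. Besides Canx, Col8a2 and Actg2, the elongation factor Ell2 fell by 0.49 ± 0.11 on the log2 scale under siRNA 1 and rose by 0.77 ± 0.11 in controls. Lhfp was at 27.2, 29.4 and 29.0 CPM in siRNA 1 myotubes and at 48.7, 48.6 and 51.0 CPM in siRNA 1 myoblasts, against 27.4, 27.4 and 28.1 CPM in control myotubes and 18.9, 21.4 and 19.98 CPM in control myoblasts. The siRNA 1 and control series thus started apart in myoblasts and met in myotubes.

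The counts in the other lists are to be read beside the 5.17% of all genes called upward and the 9.08% called downward. Called upward and downward were 1 and 1 of 48 cytosolic ribosomal protein genes, 2 and 2 of 35 ribosome biogenesis genes, 1 and 2 of 34 proteasome genes, 3 and 0 of 28 interferon genes, 3 and 1 of 27 genes of NF-kB and cytokines, 5 and 2 of 30 of autophagy and lysosome, 6 and 4 of 29 p53 targets and apoptosis genes, 2 and 1 of 29 Wnt genes, 3 and 3 of 26 IGF genes, and 2 and 1 of 19 genes of reserve and satellite cells. Among markers of other cells, 1 and 0 of 4 adipocyte, 0 and 1 of 7 neuron and glia, and none of 6 osteoblast and chondrocyte, 6 endothelial and 2 macrophage genes were called. No cholesterol synthesis gene of 26 had a called difference, though 9 rose under siRNA 1 against 14 in controls, and their median difference was -0.22. Of 36 genes of Id factors, TGF-beta and BMP, 1 was called upward and 7 downward. Id3, an inhibitor of the MyoD family, was at 7.84, 7.08 and 7.33 CPM in siRNA 1 myotubes and at 37.9, 37.5 and 55.2 CPM in siRNA 1 myoblasts, against 15.7, 14.3 and 16.2 CPM in control myotubes and 34.4, 50.01 and 47.5 CPM in control myoblasts, a difference of -1.04 ± 0.28 (edgeR adjusted p = 0.0277), a call that was lost without the second or the third siRNA 1 myotube or the third control myotube library (adjusted p 0.0600 to 0.0638). Of 27 genes of H3K36 methylation, Setd2 among them, none was called upward and 4 downward, led by Nsd2, the H3K36 dimethyltransferase, at -0.34 ± 0.05 (edgeR adjusted p = 0.000115). Of 48 splicing regulators, 1 was called upward and 4 downward.

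The second Setd2 siRNA gave the nearest comparison. Setd2 stood at 38.9, 35.9 and 34.4 CPM in siRNA 2 myotubes and at 45.0, 44.1 and 39.3 CPM in siRNA 2 myoblasts. Against its own differentiation, siRNA 1 had 972 genes with a called difference upward (5.74%) and 1382 downward (8.16%), of which 149 reached 2-fold. C names 1 of the 3 siRNA 2 myoblast libraries, against 2 of the 3 of siRNA 1, so this contrast also carries part of any effect of the letter. With a term for the prefix, 4021 differences were called in place of 2354. Values within a letter were not computed for siRNA 2. Mitosis genes fell with either siRNA, by medians of -3.23 under siRNA 1 and -3.18 under siRNA 2, and 5 of 40 had a called difference, all downward. Set against controls, which both siRNAs share, the siRNA 2 change had a called difference upward in 2254 genes (13.3%) and downward in 2308 (13.6%). In mitosis these were 0 and 37 of 40, beside 0 and 39 for siRNA 1, and in the matrix list 0 and 27 of 57, beside 2 and 21. In the folding and stress list they were 1 and 19 of 34, beside 0 and 21, and among YAP and SRF targets 0 and 22 of 36, beside 0 and 16.

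The siRNAs parted in the RNA of mitochondrial genes. Oxidative phosphorylation genes rose by a median of 0.38 under siRNA 1, against 0.59 under siRNA 2, and the difference was called for 44 of 61, all lower under siRNA 1, with a median of -0.21. The count was 21 without the third siRNA 2 myoblast library, 23 and 22 without the second and the third siRNA 1 myotube library, and 29 and 27 without the first and the second siRNA 2 myotube library. The third siRNA 2 myoblast library was matched from a column whose name has SETD3 in place of SETD2. Ribosomal RNA-like sequence took 4.1% of its counts, against 1.46% and 1.9% in the other siRNA 2 myoblast libraries. On counts scaled by library totals alone 26 were called, and on TPM (transcript abundance corrected for length) 14, all lower. Of 35 genes of fatty acid oxidation and mitochondrial biogenesis, 13 had a called difference, again all lower under siRNA 1, and of 34 proteasome genes 1 was higher and 15 were lower. In the sarcomere list 6 of 64 were higher and none was lower under siRNA 1, beside 5.74% and 8.16% of all genes.

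**Figure D4:**
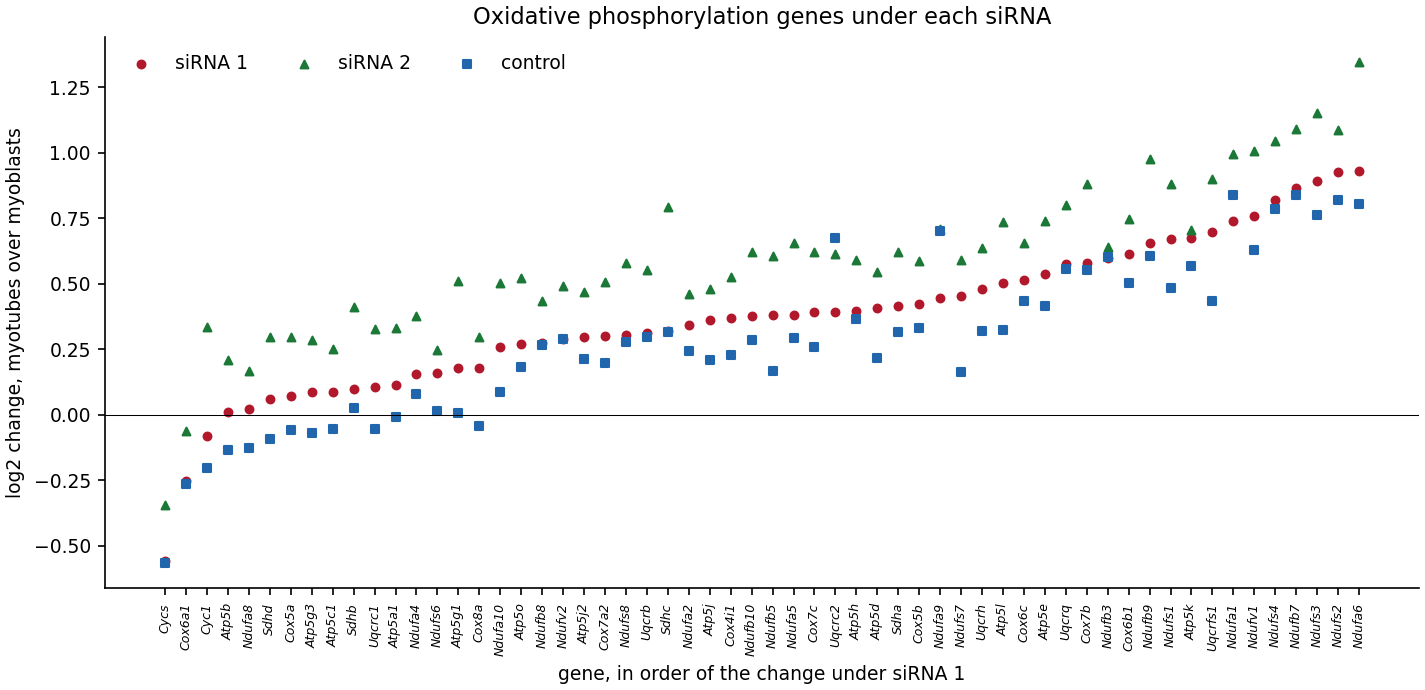
Log2 change from myoblasts to myotubes (y axis) of oxidative phosphorylation genes (x axis, in order of the change under siRNA 1) under siRNA 1, under siRNA 2 and with the control siRNA; each column of 3 points is 1 of the 58 genes drawn, and 3 muscle isoforms with larger changes are not drawn. The siRNA 2 point lies above the siRNA 1 point in 58 of the 58 genes, and the siRNA 1 point above the control point in 53.

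Single genes also parted the siRNAs. Sema3c, a secreted semaphorin, was at 128, 129 and 137 CPM in siRNA 1 myotubes and at 24.4, 21.6 and 23.2 CPM in siRNA 1 myoblasts, a change of 2.51 ± 0.06, against 0.96 ± 0.05 under siRNA 2, a difference of 1.55 ± 0.08 (edgeR adjusted p = 3.89e-10). Cdkn1c, the CDK inhibitor p57, rose by 3.81 ± 0.25 under siRNA 1 and by 5.68 ± 0.25 under siRNA 2, a difference of -1.87 ± 0.39 (edgeR adjusted p = 0.00594), and by 3.76 ± 0.26 in controls. Dusp9, a MAP kinase phosphatase, fell by 3.19 ± 0.19 on the log2 scale under siRNA 1 and by 1.31 ± 0.21 under siRNA 2. Ccn2, not called under siRNA 1, rose by 1.79 ± 0.29 under siRNA 2, and the difference between the siRNAs was -1.53 ± 0.40 (edgeR adjusted p = 0.0241).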

How the data were processed

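PolyA RNA of C2C12 cells was measured in 18 libraries, 3 per stage and siRNA. The deposited values are estimated counts and TPM per transcript, computed by the authors from their reads, as the column names of the deposited tables show. The submitters' processing notes name mm10 and DESeq2, with no role given. No source used here says whether counting used strand, so reads of overlapping or antisense genes may be shared. Transcripts were summed to genes with GENCODE M21: 114200 of 115088 transcripts were matched, giving 47311 genes, and 888 were not matched. The summed estimated counts were rounded to whole numbers, as the authors deposited no whole counts.

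Genes with a count of at least 10 in enough libraries for the smallest group (filterByExpr) were kept, 16930 in all. All 18 libraries entered 1 fit with a mean per stage and siRNA (12 residual degrees of freedom), TMM scaling and the quasi-likelihood test of edgeR 4.0.16 in R 4.3.3. P-values were adjusted by Benjamini-Hochberg over all genes tested, and a call is an adjusted p under 0.05. Differences of changes were contrasts in the same fit. CPM are TMM-scaled. The test was checked on simulated counts. Alternatives were DESeq2 1.42.0, TPM (pseudocount 1) with limma 3.58.1, other scalings, a minimum count of 50 or none, a term for the name prefix, a replicate block, fewer libraries in the fit, and leaving out each library. Fits without 1 library pool the spread over all groups.

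The members and the 37 gene lists (1113 symbols) were chosen with earlier results of these data known. Genes named in the text were taken by a rule: Setd2, a set of anchor genes, the 10 highest and 10 lowest changes under siRNA 1, the 15 highest and 15 lowest differences from controls and the 5 highest and 5 lowest from siRNA 2 among called protein-coding genes with a mean of at least 5 CPM, and per list the 2 highest and 2 lowest called differences and the largest change. Genes outside the rule are said to be so where they appear. Promoters are from RefSeq (GRCm38.p6). Replicate numbers were not taken to pair libraries. No library was a duplicate of another by a chi-square of counts against sampling noise. Same-letter pairs lay closer than pairs across letters in some groups. Their chi-square per gene was 2.6 in siRNA 1 myoblasts (11.3 and 11.8 across). It was 2.69 in control myoblasts (10.4 and 12.3) and 3.21 in siRNA 2 myotubes (24.3 and 25.3). In siRNA 1 myotubes it was 18.5 (18.6 and 31.2). In control myotubes it was 15.8 (11.5 and 16.2), and in siRNA 2 myoblasts 29.0 (15.2 and 61.2). The main fit treated all libraries of a group as equally independent.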

Additional observations from a re-analysis of the deposited data

Results flagged for a closer look

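Between the siRNAs, the change under siRNA 1 minus that under siRNA 2 (log2) was called for 10 genes taken by the rule on named genes. It was 2.31 for Atp6v1c2, 1.70 for Xaf1, 1.57 for Gldc, 1.55 for Sema3c and 1.46 for Ptpn22, which changed more upward under siRNA 1. It was -2.0 for Serpinb2, -1.88 for Dusp9, -1.87 for Cdkn1c, -1.84 for Dkk2 and -1.71 for Stc1, which changed more downward. The rule took only genes that had passed the edgeR test of this difference, so that all 10 were called adds nothing.

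Against controls, 9 named genes were called in opposite directions, with the difference itself called by edgeR. The change under siRNA 1 minus that in controls was 1.56 for Pdk4 and 1.28 for Plet1. It was -2.53 for Col8a2, -1.36 for Actg2, -1.27 for Cdh18, -1.26 for Ell2, -1.25 for Lhfp, -1.23 for Adam12 and -0.59 for Canx. The Adam12 difference lost its call without the second or the third siRNA 1 myotube, the third siRNA 1 myoblast, the first or the third control myotube, or the first or the second control myoblast library (edgeR adjusted p 0.0609 to 0.0794).

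Ribosomal RNA-like transcripts, whose genes are in none of the lists, took 3.91%, 3.56% and 3.90% of the estimated counts in the siRNA 1 myoblast libraries, against 1.198% to 1.36% in control myoblasts. With these and mitochondrial-like genes left out of the fit, 2404 differences between siRNA 1 and control were called (936 up, 1468 down), in place of 2413 (876 up, 1537 down). In that fit 39 mitosis, 20 folding and stress and 20 matrix genes were called downward.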

How the results depend on the processing

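The counts of genes called were 13278 under siRNA 1, 13123 in controls, 2413 for their difference and 2354 for the difference between the siRNAs. Leaving out each library in turn gave 12865 to 13074, 12699 to 12852, 1809 to 2370 and 1788 to 2251. With a term for the name prefix the differences numbered 3857 and 4021; the cause was not tested. By list, leaving out a library gave 39 called mitosis genes each time, 22 to 27 of DNA replication, 14 to 19 of DNA repair, 13 to 18 of the folding and stress list, 14 to 24 of the matrix, 12 to 17 YAP and SRF targets and 63 sarcomere genes. DNA repair had 9 called on TPM with limma. Oxidative phosphorylation, called upward against controls, had 5 with no filter on low counts, 36 with the prefix term and 3 to 14 with a library left out; against siRNA 2, called downward, it had 14 on TPM, 26 by library totals and 21 to 48 with a library left out. Setd2 stayed lower with siRNA 1, at -1.44 to -1.10 in myotubes and -1.53 to -1.38 in myoblasts with a library left out. Rbfox1, a splicing factor, reversed its difference from controls on TPM with limma (0.51, adjusted p = 0.0044). Its difference was below 0 in the main fit but above 0 within each letter, at 0.21 with C and 0.79 with D, so its direction was not settled.

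The split of the difference between the siRNAs was 972 up and 1382 down, against 1133 and 999 by library totals and 1192 and 576 on TPM. That of siRNA 2 against controls was 2254 and 2308, against 1572 and 2471 on TPM; the counts for siRNA 2 were chosen after seeing the data. Same-numbered siRNA 1 myotube and myoblast libraries deviated from their group means with correlations of 0.042, -0.029 and -0.016, so the numbers were not taken to pair them. Between siRNA 1 and control libraries of the same stage, deviations went with the letter. With the same letter the correlations were 0.261 to 0.434 in myoblasts and 0.183 to 0.226 in myotubes. Across letters they were -0.552 to -0.176 in myoblasts and -0.342 to -0.086 in myotubes. With the replicate block, 2693 differences from controls were called and 13347 changes under siRNA 1. Among 2321 values of named genes' differences under other processing, 2213 kept direction and call, 78 lost and 29 gained the call, and 1 reversed. Among 2544 with a library left out, 254 lost it.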
